A study of Mus musculus with 2 samples.

Results

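Genomic models of known genes are transcript models that a long-read caller, TALON, placed in an annotated gene but in none of its splice-based classes. All rows with the transcript class Genomic and the gene class Known were taken from the transcript tables of both libraries, with spike-in RNAs left out. This gave 5729 of 75169 models in replicate 1 and 9810 of 94545 in replicate 2, or 14778 distinct sets of coordinates over both. They lay in 8501 of the 15521 known genes that had a read in either library, and 3546 of these genes held a Genomic model in both.

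The libraries were made from gastrocnemius, the calf muscle, which is rich in fast-twitch fibres. The mice were female B6CASTF1/J animals aged 25 days, F1 hybrids of a laboratory strain and the wild-derived CAST strain. There is 1 group with 2 biological replicates and no genetic or drug treatment is named. Each library used 2 µg of total RNA, and the labels number the animals differently but give both the same donor record. No contrast between conditions exists, so each test below compares the reads of 2 libraries, and the spread between them holds animal, dissection and library differences together.

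A messenger RNA of most mammalian genes is spliced and then cut and polyadenylated a short way after a polyadenylation signal, most often AATAAA or ATTAAA, in its last exon. A long read that starts at the poly(A) tail and stops before the last splice junction carries no junction, and neither does a read of unspliced RNA or of an intron. TALON names a model Known where its chain of introns is annotated, ISM (incomplete splice match) where its chain is a consecutive part of an annotated chain, NIC or NNC where it joins known splice sites anew or uses unannotated splice sites, and Genomic where none of these applies.

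Replicate 1 held 1069771 reads without spike-ins and replicate 2 held 1557594. The 6 muscle fibre markers (Acta1, Ckm, Atp2a1, Myh4, Tnnt3 and Des) summed to 313176 counts per 1000000 reads (CPM) in replicate 1, and in replicate 2 to 215665 CPM. Fibroblast and tendon markers summed to 4265 and 2804 CPM. The endothelial, adipocyte, nerve and Schwann, blood and leukocyte lists each summed to between 39.3 and 1048 CPM in replicate 1. In replicate 2 they summed to between 27.0 and 365 CPM. All 6 fibre markers were read in both libraries, but so were all markers of the other lists except leukocyte (3 of 4). The match with the labelled tissue rests on the fibre markers having the largest sum. Intervals are exact Clopper-Pearson 95% intervals. They, and the limits given for counts of 0 (3 counts of the total), cover counting error only.

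The 3′ ends of 8 much-read models are shown first, since the position of the end is what sorts these reads. Each line gives the last 30 bases before the end, 5′ to 3′ on the transcript strand, on mm10, from the GENCODE M21 transcript sequences. Capitals mark AATAAA or ATTAAA.
Slc25a4, chr8:46206797-46206826, minus strand: ccaagtggacaatataaactgaagaacagt
Apobec2, chr17:48419231-48419260, minus strand: atagcaacatcAATAAAggaaataagtggt
Des in replicate 2, chr1:75367689-75367718, plus strand: gaaacaatAATAAAgagacaagcacaaacc
Des in replicate 1, chr1:75367692-75367721, plus strand: acaatAATAAAgagacaagcacaaacctgc
Mb, chr15:77015487-77015516, minus strand: gtctcAATAAAatatcctgcgagtcctcaa
Mylpf, chr7:127214258-127214287, plus strand: tcAATAAAactcaactggtctttgtttctt
Hhatl, chr9:121783288-121783317, minus strand: ccctcccactttttctcatcctcgttgtat
Gm20659, chr11:101972921-101972950, plus strand: aacttggctatggtcacttcattctgggcc
The first 6 lie in last exons, and 5 of those 6 hold a signal, which starts 19 bases before the end in Apobec2, 22 and 25 in Des, 25 in Mb and 28 in Mylpf (the count runs from the first base of the signal to the end). Slc25a4 holds neither hexamer in these 30 bases. Hhatl and Gm20659 end past their genes and hold neither, and the 20 annotated bases after the Gm20659 end are 20 of 20 A.

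Genomic reads made up a larger part of replicate 2. They were 23108 reads, 2.16% (interval 2.13 to 2.19) of replicate 1, and 81604 reads, 5.24% (5.204 to 5.27) of replicate 2, a mean of 3.70% ± 2.18 (SD, n = 2). The share was 2.43-fold higher in replicate 2, with an odds ratio of 2.50 (2.47 to 2.54) between the reads of the libraries. Other values moved with it. The read-weighted median length of Known models was 1847 bases in replicate 1 and 1446 in replicate 2. This is a length of models, which depends on the genes read, and not a length of reads or RNA. ISM models took 8.30% of the reads in replicate 1 and 11.7% in replicate 2. The part of RNA length in the difference was not tested.

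Nearly all of these reads were unspliced over the stretch they covered. Models with 1 exon held 98.6% of Genomic reads in replicate 1 and 99.2% in replicate 2, and every one of them lay in a gene annotated with more than 1 exon. The other 218 and 342 models, with 2 or more exons, held 316 and 650 reads. Of all single-exon reads in multi-exon genes, 66.1% were Genomic in replicate 1 and 68.9% in replicate 2, while 29.5% and 28.2% were ISM. Single-exon ISM models began at an annotated exon start for 94.9% and 93.8% of their reads, and single-exon Genomic models for 10.9% and 10.01%. Models equal to an annotated exon held 86.5% and 84.1% of these ISM reads and 0% of these Genomic reads. The difference in model starts can thus restate how the caller sorts the classes.

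A few models held many reads and most held few. In replicate 1, 57.6% of the models had 1 read, against 50.6% in replicate 2. Models with 100 or more reads numbered 23 and held 21.9% of the Genomic reads in replicate 1. They numbered 93 and held 48.3% in replicate 2. Matched by strand and ends within 50 bases, 21.03% of the models of replicate 1 and 12.3% of those of replicate 2 were found in the other library, and these held 32.9% and 38.8% of the reads. The 3′ end alone recurred for 52.0% and 30.6% of the models, which held 70.7% and 68.2% of the reads. This is the end of the model as the caller set it.

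The length of a model is not the length of its reads. Models of under 50 bases held 1900 reads in replicate 1 and 16797 in replicate 2, or 8.22% and 20.6% of all Genomic reads. Of these, 168 and 461 models were 1 base long and held 1116 and 10081 reads. The median model length was 1166 bases in replicate 1 and 564.5 in replicate 2. Starts and lengths are therefore given below as the tables have them, and results are built on the 3′ ends. These too are ends of models, not of single reads.

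Most Genomic reads ended in a last exon. Ends in a last exon of the read's own gene took 79.3% of Genomic reads in replicate 1 and 85.8% in replicate 2, a mean of 82.5% ± 4.62 (SD, n = 2). Ends in introns took 11.6% and 9.14%, a mean of 10.4% ± 1.76. Ends more than 50 bases past the last annotated base of the gene took 7.80% and 3.74%, a mean of 5.77% ± 2.87. Ends in other exons took 1.32% in each library, and no read ended before its gene's start. A model ending there would lie outside the gene it was placed in, so this 0 is not a measurement.

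**Figure D1:**
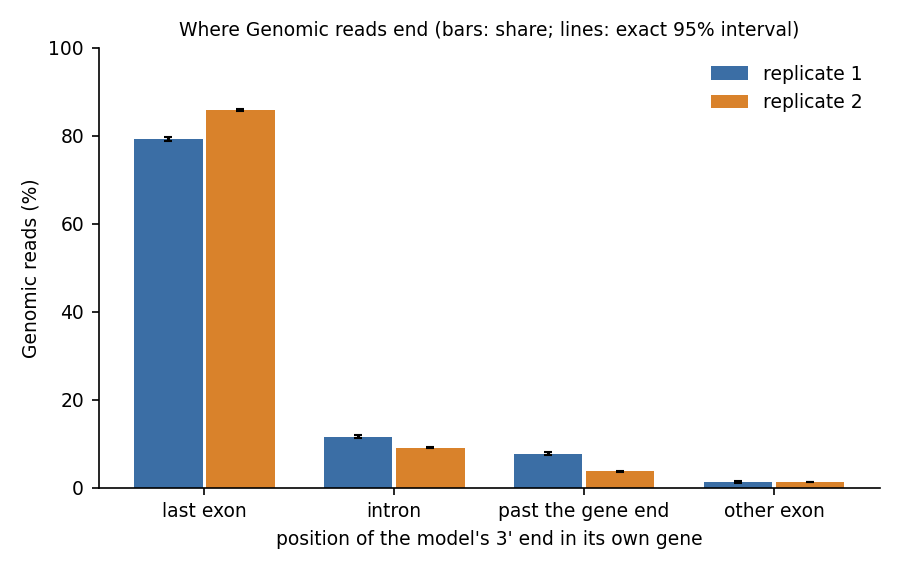
Share of Genomic reads (vertical axis, percent) by the position of the model's 3′ end (horizontal axis) in replicate 1 (blue) and replicate 2 (orange), with exact 95% intervals. The last exon holds 79.3% and 85.8%, and ends in introns and past the gene end hold smaller shares in replicate 2.

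Scaled to depth, the classes differed between the libraries by unequal amounts. Reads ending in last exons stood at 1712 and 4495 per 100000 reads of the library, 2.63-fold. Reads ending in introns stood at 251 and 479, 1.91-fold, and reads ending past the gene at 168 and 196, 1.16-fold. These folds describe 2 libraries and were not tested.

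By the overlap of whole models with the annotation, models that covered exon bases only held 69.9% of reads in replicate 1 and 76.5% in replicate 2. Models over exon and intron bases held 13.2% and 11.9%, models over intron bases only 8.07% and 7.36%, and models that reached outside the gene 8.85% and 4.20%. A whole annotated intron lay within the models of 9.57% and 6.70% of the reads.

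Most model ends in last exons were placed on annotated transcript ends. Models whose 3′ end was exactly an annotated transcript end held 69.4% of Genomic reads in replicate 1 and 73.9% in replicate 2. Ends 1 to 299 bases away held 1.86% and 2.32%, and ends 300 or more bases away held 28.7% and 23.8%. Models numbered 26 and 69 in a window just under 300 bases away, and 89 and 185 in the next window over it. The counts thus step up at this distance. Ends are those of models as the caller set them, and a model end need not be the end of its reads. Among single-exon models at an annotated end, 81.9% in replicate 1 and 81.4% in replicate 2 held AATAAA or ATTAAA, searched on the transcript strand, in their last 40 bases. Single-exon ISM models at an annotated end gave 81.2% and 80.1%. The same hexamers stood before 33.5% of all annotated transcript ends of these genes and in 4.15% of all windows of 40 bases in their last exons. For models at an annotated end, the bases searched are those before the annotated end itself. The values therefore describe the annotated ends that models were placed on, and they do not test where reads stopped.

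Ends inside a last exon but short of any annotated end were a smaller group. Here 51.8% of 622 models in replicate 1 and 51.4% of 1174 in replicate 2 held one in the last 40 bases, and the NIC, NNC and multi-exon ISM models that ended in this position ranged from 51.9% to 57.4%. Single-exon ISM models in this position stood at 61.5% and 58.3%. A stretch of 12 or more A in the 20 bases after the end followed 14.1% of 647 such Genomic models in replicate 1, which held 7.48% of the reads. In replicate 2 it followed 11.8% of 1218 models, which held 6.80% of the reads. Of all 20-base windows in the same last exons, 1.37% were this rich in A. Among NIC, NNC and ISM models ending in this position, the share ran from 7.36% to 13.0% of models. By reads it was 17.1% and 12.3% for NIC and 14.7% and 15.7% for multi-exon ISM, above the Genomic values, and 8.35% and 9.44% for NNC. For single-exon ISM it was 7.98% and 6.84%.

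Slc25a4, the mitochondrial ADP/ATP carrier of heart and skeletal muscle, had 1397 Genomic reads of 10456 in replicate 1 and 5633 of 23230 in replicate 2. Nearly all sat on a 747-base model at chr8:46206797-46207543 that ends exactly at the gene's annotated end, within its last exon. The Genomic share of the gene was 13.4% and 24.2% (adjusted p = 4.8e-119, Fisher's exact test with Benjamini-Hochberg adjustment). The same test over 2862 genes called 17.1% higher and 2.34% lower in replicate 2, which is the background for each call named here.

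Apobec2, a muscle-enriched member of the cytidine deaminase family, came next with 622 of 1192 reads and 4691 of 5505. Its Genomic model is 1 base long in both libraries and marks the annotated end of the gene. The share was 52.2% in replicate 1 and 85.2% in replicate 2 (adjusted p = 4.1e-121, Fisher's exact test). For this gene the Genomic class was thus the larger part of all reads in both libraries.

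Des, which encodes the intermediate filament protein desmin, had 152 Genomic reads of 3690 in replicate 1 and 2241 of 5619 in replicate 2, shares of 4.12% and 39.9%. Both leading models end in the last exon, 858 and 861 bases short of the nearest annotated transcript end, just after the AATAAA shown above. The model of replicate 1 is 2347 bases long and spans 1 whole intron. That of replicate 2 is 870 bases long and spans none.

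Esrra, the estrogen-related receptor alpha, a nuclear receptor that regulates oxidative metabolism genes, had 136 of 178 reads and 1523 of 1552. Its share was 76.4% in replicate 1 and 98.1% in replicate 2 (adjusted p = 1.3e-23, Fisher's exact test). The 73-base model ends where a gene on the opposite strand also has an exon. Pvalb, the calcium buffer parvalbumin of fast fibres, had 3 of 1920 reads and 1491 of 5347, shares of 0.156% and 27.9%. In replicate 1 the 3 reads ended in another exon, and in replicate 2 the leading model was 4 bases long at the annotated end.

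Mb, the oxygen-binding protein myoglobin, had 134 of 389 reads and 850 of 1620, shares of 34.4% and 52.5%. Ndrg2 had 115 of 2552 and 829 of 3495, shares of 4.51% and 23.7%. Mrpl30, a protein of the mitochondrial ribosome, had 64 of 154 and 869 of 1078, shares of 41.6% and 80.6%. The models of these 3 genes had the same coordinates in both libraries and ended exactly at annotated ends. All 3 shares were higher in replicate 2, with adjusted p of 3.6e-09 for Mb, 8.6e-102 for Ndrg2 and 7.9e-21 for Mrpl30 by Fisher's exact test.

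**Figure D2:**
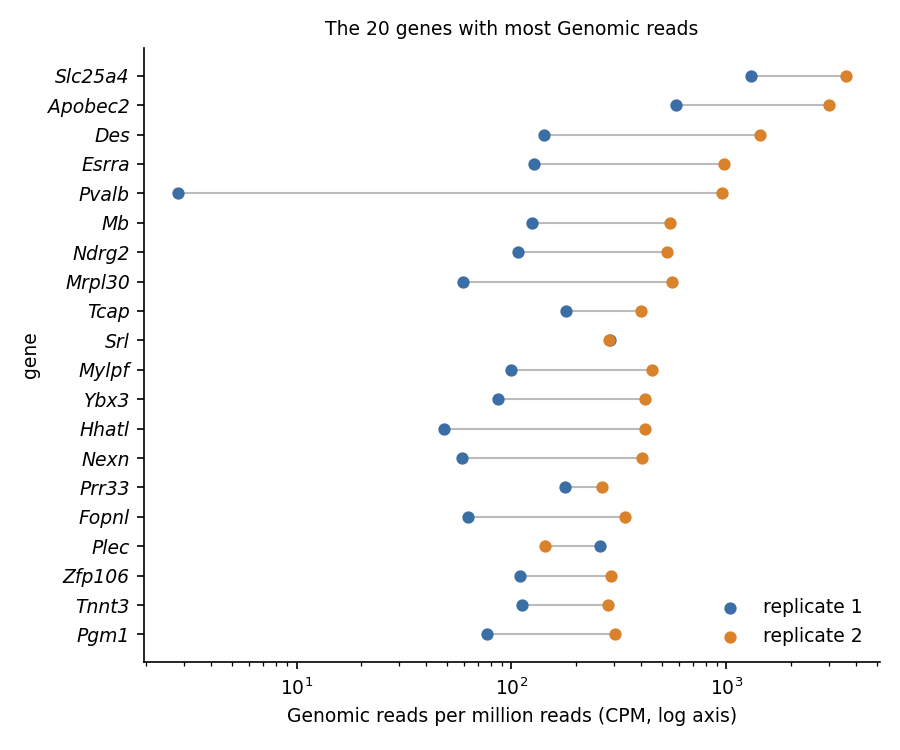
Genomic reads in CPM (horizontal axis, log scale) of the 20 genes with the highest mean (vertical axis), in replicate 1 (blue) and replicate 2 (orange), joined by a line. Slc25a4 leads with 1306 and 3616 CPM, Srl and Plec are lower in replicate 2, and Pvalb is the farthest apart.

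Of these 20 genes, Srl and Plec had fewer Genomic reads by CPM in replicate 2. Plec, which encodes the cytoskeletal linker plectin, held 257 CPM in replicate 1 and 143 in replicate 2, while its share of the gene's reads was 82.1% and 94.5%. Srl, the sarcoplasmic reticulum protein sarcalumenin, held 287 and 284 CPM, a mean of 286 ± 1.81 (SD, n = 2).

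Several contractile genes had Genomic models that ended at the annotated end and spanned whole introns. The span is that of the model, and how much of it each read covers is not given. Tcap, the titin cap protein telethonin, had such a model over its whole length with its 1 intron inside, which held 190 reads in replicate 1 and 625 in replicate 2. Mylpf, the fast regulatory myosin light chain, had 106 reads on a model spanning 5 introns in replicate 1. In replicate 2 it had 699 reads on a model spanning 4. Tnnt3, the fast troponin T, had 120 reads on a model spanning 2 introns in replicate 1, and 438 on a model spanning 4 in replicate 2. For Tnni2, the fast troponin I, the counts were 0 of 2647, which allows up to 0.113%, and 587 of 6238. These reads were small parts of all reads of Tcap (3.20% and 4.75%) and Mylpf (0.730% and 2.01%) and larger for Tnnt3 (7.34% and 10.2%).

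Pgm1, the glycogen-metabolising enzyme phosphoglucomutase, had models of another kind that begin within an intron. Of its reads, 82 of 1115 and 472 of 1608 were Genomic. The leading model held 1616 intron and 620 exon bases in replicate 1, and 2571 and 711 in replicate 2, where it also spanned 1 whole intron. The share was 7.35% and 29.4% (adjusted p = 4.65e-47, Fisher's exact test).

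Ends past the gene were 332 models with 1802 reads in replicate 1 and 337 models with 3053 reads in replicate 2. Of these reads, 94.9% and 93.0% were on models that start inside the gene and run out of it. The read-weighted median distance past the gene was 2008 bases in replicate 1 and 1052 in replicate 2. An exon of a gene on the opposite strand lay at the end for 32.3% and 50.6% of the reads.

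Hhatl, a gene of the membrane-bound acyltransferase family expressed in muscle, had 50 such reads in replicate 1 and 652 in replicate 2, all 728 bases past the annotated end. They were most of the gene's Genomic reads, whose share of the gene was 15.6% and 65.5%. Scn4a, the sodium channel of skeletal muscle, had 36 and 78 reads on models ending 1052 bases past the gene. Gm20659, annotated as an antisense RNA, had 71 and 161 reads, all of its reads, on a model that runs 1091 bases past the gene and ends before the run of A described above.

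For Srl and Sparc the end class differed between libraries. Srl had 305 reads in replicate 1 on a 5264-base model that ends 3238 bases past the gene, and none there in replicate 2. In replicate 2 the leading model of Srl held 411 reads, was 13 bases long and stood at the annotated end. Sparc, a matrix protein gene, had the reverse: 62 reads in replicate 1 on a 1-base model at the annotated end, and 253 reads in replicate 2 on a model ending 1169 bases past it. The cause was not tested.

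Ends past the gene lay in 330 genes in each library. Ends in introns lay in 1111 genes in replicate 1 and 2128 in replicate 2, with 2687 and 7460 reads. Prr33 had the most, with 189 reads in replicate 1 and 329 in replicate 2, on models of 1326 and 1557 bases that lie wholly in an intron. Cfap77 had 83 and 207 reads, and the noncoding gene AC154200.1 had 90 and 180. For both, all reads of the gene were Genomic, and the leading model had the same coordinates in each library: 181 bases at chr2:28933430-28933610 for Cfap77 and 280 bases at chr17:17345177-17345456 for AC154200.1. Gm45692 had 29 and 182 reads, all of its reads, and its leading model ends in an exon of another gene on the same strand. Gm20388 had 35 and 244. Its annotated span is from 119910841 to 124345722 on chromosome 8, so an end in its introns can lie far from any of its exons.

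Genes with all or nearly all of their reads in the Genomic class formed a small set. Among 4149 genes with 20 or more reads in each library, 60 had a Genomic share above 50% in both, 64 in replicate 1 and 189 in replicate 2. The median gene had a share of 0% in replicate 1 and 1.961% in replicate 2. Besides Cfap77, AC154200.1, Gm20659 and Gm45692, the shares were 100% in both libraries for Gm28376, Fgfr2, Anks1b and A930016O22Rik, with 20 to 34 Genomic reads in replicate 1 and 28 to 74 in replicate 2. Gm28376, Fgfr2 and Anks1b reads all ended in introns. The leading Fgfr2 model ended 467553 bases from the nearest annotated end of its gene in replicate 1, on an exon of an opposite-strand gene. In replicate 2 another model led, 2724858 bases away. The leading Anks1b model ended 154708 bases away in both. Rabep2 had 37 of 37 and 48 of 49 reads in the class, and Tsc1, a tumour suppressor that restrains mTOR signalling, had 35 of 37 and 452 of 453.

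Protein-coding genes held 93.4% of the Genomic reads in replicate 1 and 95.0% in replicate 2, and the class was 2.10% and 5.34% of their reads. Antisense genes had 45.1% and 49.97% of their reads in the class, and lincRNA genes 20.8% and 28.6%. Processed pseudogenes had 0.616% and 0.702%. None of the reads of the 18 mitochondrially encoded genes was Genomic, of 1932 reads in replicate 1 and 8191 in replicate 2. The mitochondrial genome has no introns.

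The share was larger in genes with long last exons. In genes whose longest annotated last exon was under 250 bases, 0.630% of reads were Genomic in replicate 1 and 1.87% in replicate 2. In those with 4000 bases or more it was 8.57% and 13.7%. Across 4149 genes, which are not independent replicates, Spearman's rho between share and last exon length was 0.29 and 0.34. With total intron length it was 0.22 and 0.26, and with the largest number of exons 0.06 and 0.11. With the reads of the gene it was -0.05 and -0.12. The points share their library and its depth.

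**Figure D3:**
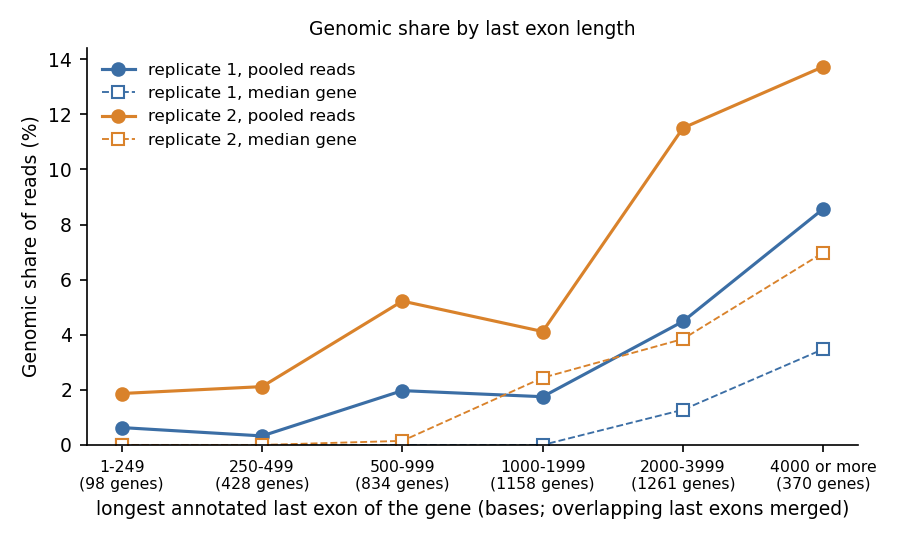
Genomic share of reads (vertical axis, percent) by the length of the gene's longest annotated last exon in bases (horizontal axis), as pooled reads (filled circles) and as the median gene (open squares), for replicate 1 (blue) and replicate 2 (orange). The pooled share goes from 0.630% and 1.87% in the shortest bin to 8.57% and 13.7% in the longest, not evenly in between.

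Gene by gene, more shares were higher in replicate 2 than lower. Of 2862 genes with 20 or more reads in each library and a Genomic read, 488 (17.1%) had a higher share in replicate 2 and 67 (2.34%) a lower share at an adjusted p of 0.05 or less by Fisher's exact test. The other 2307 did not pass. Measured against the odds ratio of all known genes, 2.57, in place of equal shares, 140 were higher and 134 lower. Over the 4149 genes, Spearman's rho between the shares of the libraries was 0.56, as a description.

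**Figure D4:**
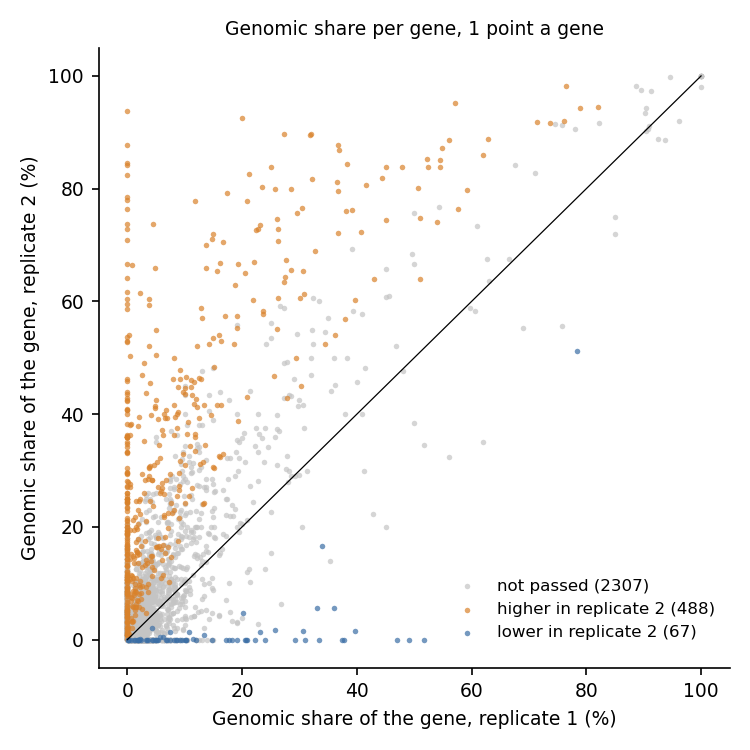
Genomic share of each of 2862 tested genes in replicate 1 (horizontal axis, percent) and replicate 2 (vertical axis, percent), with the line of equal shares. Genes higher in replicate 2 (orange, 488) lie above it, the 67 lower genes (blue) lie mostly along the bottom edge, and 2307 (grey) did not pass.

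The genes with a lower Genomic share in replicate 2 held reads of another class there. The 5 with the largest differences were Rxra, a retinoid receptor (29 of 56 reads and 0 of 52), Slc25a5, another ADP/ATP carrier (106 of 216 and 0 of 576), Pbxip1 (38 of 81 and 0 of 191), Mtss1l (25 of 63 and 1 of 64) and Speg, a muscle kinase (23 of 61 and 0 of 115). Counts of 0 allow up to 5.77%, 0.521%, 1.57% and 2.61% for Rxra, Slc25a5, Pbxip1 and Speg. In the same genes, single-exon ISM reads were 0 in replicate 1 and 40, 452, 118, 24 and 77 in replicate 2. The sums of both classes were 51.8% and 76.9% of reads for Rxra, 49.1% and 78.5% for Slc25a5, 46.9% and 61.8% for Pbxip1, 39.7% and 39.1% for Mtss1l, and 37.7% and 67.0% for Speg.

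The 5 largest differences in the other direction showed this exchange in part. Klf9, a Krüppel-like transcription factor, had 0 of 210 Genomic reads in replicate 1, which allows up to 1.43%, and 208 of 222 in replicate 2, while its single-exon ISM reads were 183 and 0. The summed share of Klf9 was 87.1% and 93.7% (adjusted p = 0.099, Fisher's exact test). Hdac7, Susd6 and Slc25a44 had 0 of 21, 42 and 30 Genomic reads in replicate 1, which allows up to 14.3%, 7.14% and 10%, and 50 of 57, 55 of 65 and 75 of 89 in replicate 2. Their summed shares were 28.6% and 87.7%, 33.3% and 84.6%, and 23.3% and 84.3%. Tpr, a nuclear pore protein, had 0 of 37, which allows up to 8.11%, and 98 of 119, with 2 and 1 single-exon ISM reads. The summed shares of Hdac7, Susd6, Slc25a44 and Tpr were higher in replicate 2 with adjusted p of 1.85e-05, 1.89e-06, 5.15e-08 and 2.11e-16 by Fisher's exact test.

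**Figure D5:**
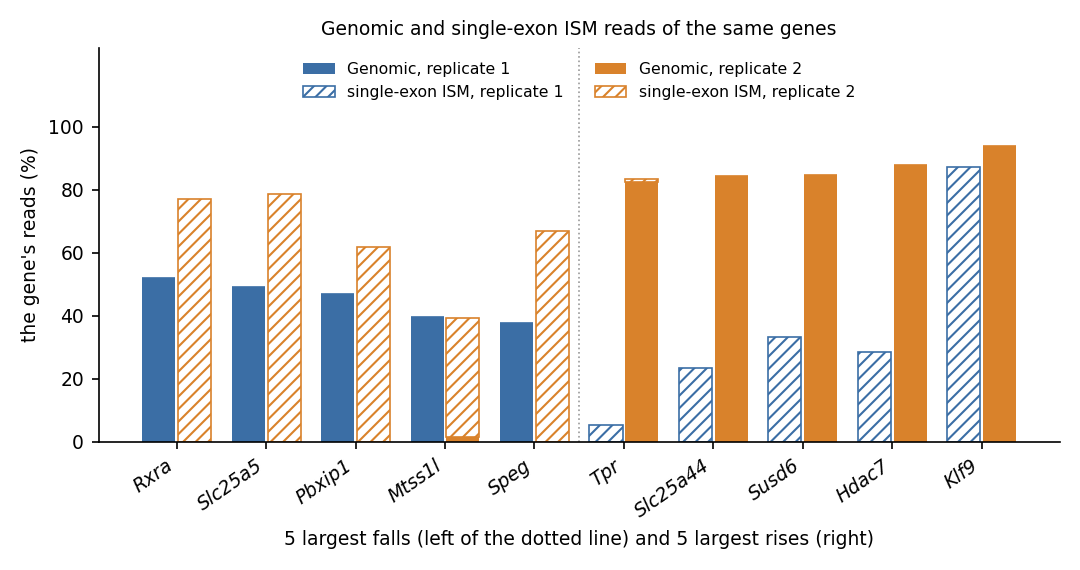
Reads of 10 genes (horizontal axis) in the Genomic class (solid) and the single-exon ISM class (hatched) as a percent of the gene's reads (vertical axis), in replicate 1 (blue) and replicate 2 (orange). In the 5 genes on the left, solid blue in replicate 1 stands beside hatched orange in replicate 2. Klf9 on the right has hatched blue beside solid orange.

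Over all genes, most of the lower calls were lost when both classes were summed. Of the 67 lower genes, 48 had no Genomic read in replicate 2. Of these 48, 45 had single-exon ISM reads there, and 43 had none of that class in replicate 1. Over the same 2862 genes, the summed classes gave 516 higher and 6 lower. Of the 67 lower genes, 6 stayed lower, 31 turned higher and 30 did not pass. Of the 488 higher genes, 389 stayed higher, 99 did not pass and 0 turned lower. The sum of both classes was 3.11% of reads in replicate 1 and 7.36% in replicate 2. This count was chosen after seeing the data.

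In most genes that changed class the leading models of both classes ended at the same place. Most ends of both classes stood exactly on annotated ends, so a match of model ends is not a separate measure of where the RNA ended. For the 43 genes that were Genomic only in replicate 1, the leading Genomic model and the leading single-exon ISM model of replicate 2 ended within 50 bases of each other in 34. For the 116 genes with the opposite pattern this held in 98. Among these 98 the Genomic model was the shorter in 86, and the longer in 12, with medians of 605 bases for Genomic and 1269.5 for ISM. Among the 34 the Genomic model was the shorter in 23 and the longer in 10, with medians of 1332.5 bases for Genomic and 1249.5 for ISM. For Klf9 the ends were identical, at lengths of 2664 bases (Genomic) and 3452 (ISM), and for Rxra as well, at 3125 and 3417. In Slc25a5 the ends lay more than 50 bases apart.

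Among the gene lists, 8 of 14 fast contractile and calcium genes tested had a higher share in replicate 2 and 1 a lower share, beside 17.1% and 2.34% over all genes. These rates are not matched for depth. In a gene with many reads, such as Atp2a1 or Myh4, a smaller difference in share passes the test. The rates therefore do not show an enrichment of this list, and the same limit holds for the calls of the lists below. The median share of the list was 0.0929% in replicate 1 and 0.958% in replicate 2. The higher genes were Pvalb, Tnnc2, Mylpf, Atp2a1, Tnni2, Myh1, Myh4 and Tnnt3. Atp2a1, the calcium pump of fast fibres, had 6 Genomic reads of 168943 and 96 of 87863, shares of 0.00355% and 0.109%. Myh4, the fastest myosin heavy chain, had 1 of 17501 and 406 of 12403. The lower gene was Actn3, the fast-fibre alpha-actinin, with 18 of 9433 and 2 of 7975, and its single-exon ISM reads were 0 and 138. Among the higher genes, single-exon ISM reads were 95 and 0 for Tnni2, 79 and 0 for Tnnc2, 52 and 0 for Myh4, 31 and 2 for Atp2a1, and 151 and 142 for Pvalb. Mylpf, Myh1 and Tnnt3 had none. All 8 stayed higher when both classes were summed. The summed share was then 3.59% and 9.41% for Tnni2 and 8.02% and 30.5% for Pvalb.

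Of 17 thin filament and Z-disc genes tested, Tcap, Ldb3 and Des were higher and Tpm2 lower. Ldb3, a Z-disc protein, had 137 of 269 and 284 of 380 reads. Its leading model was the same in both libraries, 12 bases at chr14:34561261-34561272 at an annotated end, with 64 and 187 reads. The next model of each library ended at another annotated end, 34526725, with 60 and 69 reads. Tpm2, a tropomyosin, had 62 of 5345 and 0 of 6969, which allows up to 0.0430%, with 49 and 282 single-exon ISM reads. Of 9 slow fibre genes tested, Mb was higher and Myl3 lower, with 2 of 60 and 0 of 1011 Genomic reads, which allows up to 0.297%. Of 10 giant muscle genes tested, 3 were higher, Plec and Ttn among them, and Trdn was lower. Ttn, which encodes titin, had 72 of 439 and 157 of 377 reads, shares of 16.4% and 41.6%. Trdn, which anchors the calcium release channel, had 37 of 859 and 60 of 2920.

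Metabolic lists had pooled shares below those of all known genes, which were 2.21% and 5.50%. Glycolysis and glycogen genes stood at 0.418% and 1.43%, and of 15 tested 7 were higher and 2 lower. Aldoa, the muscle aldolase, had 0 of 13723 reads, which allows up to 0.0219%, and 185 of 20468. Tpi1 had 0 of 2269, which allows up to 0.132%, and 137 of 3380. The lower genes were Gpi1, with 28 of 1245 and 1 of 1394, and Eno3, the muscle enolase, with 15 of 10007 and 0 of 15661, which allows up to 0.0192%. Creatine and adenylate genes stood at 1.82% and 3.91%. Of 6 tested, Slc25a4, Ckmt2 and Slc6a8 were higher, and Ak1, adenylate kinase 1, was lower, with 141 of 5741 and 0 of 7954, which allows up to 0.0377%. Single-exon ISM reads of Ak1 were 0 and 246, so that the summed share was 2.46% and 3.09%. Ckmt2, with 7 and 0 single-exon ISM reads, and Slc6a8, with 2 and 0, did not pass when both classes were summed.

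Nuclear respiratory chain genes stood at 0.295% and 0.664%, and 39 of 83 genes read had a Genomic read. Of 37 tested, 9 were higher, and Ndufa8 and Cox4i1 were lower. Sdha, the catalytic subunit of complex II, had 27 of 1093 and 99 of 1047 reads, and Atp5g2, a subunit of the ATP synthase ring, had 42 of 106 and 267 of 443. Ndufa8 had 4 of 319 and 0 of 780, which allows up to 0.385%, and Cox4i1 10 of 2700 and 1 of 8282. None of these 4 genes had single-exon ISM reads in replicate 1, and Ndufa8 and Cox4i1 had 15 and 24 in replicate 2. Of the 9 higher genes, 4 did not pass the test on both classes summed: Ndufa11, Uqcr10 and Sdhc, with 10, 7 and 4 single-exon ISM reads in replicate 1 and 0 in replicate 2, and Cox7a2, which had none in either.

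Ribosomal protein genes were low. Of 80 genes read, 23 had a Genomic read, and the class was 0.316% of their reads in replicate 1 and 0.303% in replicate 2. Of 20 tested, 0 were higher, and Rpl4 was lower, with 6 of 338 and 0 of 650, which allows up to 0.462%. Rpl22 had 4 of 43 and 10 of 102 reads, and Rps27a 3 of 87 and 16 of 256.

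Regulatory lists had pooled shares above those of all known genes. So did giant muscle genes (9.97% and 9.58%) and slow fibre genes (6.36% and 6.11%). The slow fibre value rests mostly on Mb, with 134 of the list's 157 Genomic reads in replicate 1 and 850 of 949 in replicate 2. The median share of slow fibre genes was 0.899% and 0.843%, beside 0% and 1.961% over all known genes. Fast contractile and calcium genes (0.112% and 1.63%) and thin filament and Z-disc genes (0.540% and 1.79%) stood below, as the metabolic lists did. Splicing regulators had Genomic reads in 26 of 36 genes, with 4.35% and 12.2% of their reads in the class. Of 20 tested, Ddx5 and Arglu1 were higher and 0 lower. Ddx5, an RNA helicase, had 3 of 195 and 70 of 284 reads, all ending in last exons. Luc7l2 had 11 of 54 and 15 of 41, of which 4 and 5 ended in introns. Among 11 muscle transcription factors and stress genes tested, Pdk4, Mef2a and Cry2 were higher and 0 lower, and the class was 7.16% and 11.4% of reads. Tead1, a transcription factor of the Hippo pathway, had 25 of 26 and 23 of 25 reads, and Pdk4, which restrains pyruvate oxidation, 94 of 1037 and 77 of 358. Of 16 nuclear long noncoding RNAs with a read, 12 had a Genomic read, but 1 was deep enough to test, H19, with 2 of 797 and 96 of 1174 reads. Its share was higher in replicate 2 (adjusted p = 4.0e-18, Fisher's exact test), and its single-exon ISM reads were 26 and 0. Over all lists, 10 genes were lower in replicate 2, and all 10 had more single-exon ISM reads there than in replicate 1.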

How the data were processed

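Long-read RNA sequencing was done on 2 libraries of 1 group. The deposited tables hold whole-number counts of reads per transcript model, with no normalization. Per the file headers the assembly is mm10 and the annotation GENCODE M21, and TALON is named in the deposited models. Platform, aligner, versions and read filters: not given in the sources used here. Spike-ins were left out. Models were placed against the annotated exons of their own gene, since deposited gene records are widened by unannotated models, with a tolerance of 50 bases past the gene end. Intervals treat reads as independent molecules.

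Shares per gene were compared by a two-sided Fisher's exact test, Benjamini-Hochberg adjusted over all genes with 20 or more reads in each library and 1 or more Genomic read. With no genome of the build in use, bases at 3′ ends were read from 141767 of 141862 annotated transcripts, and a group of ends is reported only where 80% or more have a sequence; the stretch after the end was planned on the genome. The steps were tested on simulated data. Named genes are the 20 with the highest mean Genomic CPM, the 10 with the highest mean share, the 5 largest changes each way, the 10 most read models, the 5 genes with most reads past the end, in introns and in last exons, and 3 of each list. Not all of these are described, and results for a few items are not reported here. List genes that passed the test and are not among these were named after their values were seen. Genes, lists and tests were chosen with earlier results of these data known. Python 3.11.15, scipy 1.17.1, pandas 2.3.3, numpy 2.4.6, and, for scaling factors alone, edgeR 4.0.16 (TMM) and DESeq2 1.42.0 were used. Alternatives changed tolerances, minimums, annotation, classes and scaling.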

Additional observations from a re-analysis of the deposited data

Results flagged for a closer look

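Genomic models also stood in genes outside the annotation, which no comparison above uses. Models in genes of TALON's Antisense class held 335 reads in replicate 1 and 1847 in replicate 2. Models in its Intergenic class held 32 and 344 reads. All 4 counts lie above the 3 counts that a count of 0 allows, which is why they are listed.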

How the results depend on the processing

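No paired analysis was possible because the study has 1 group. Leaving out each replicate gave a Genomic share of 2.16% to 5.24%, 79.3% to 85.8% of reads ending in last exons, 9.14% to 11.6% in introns and 3.74% to 7.80% past the gene, and 6.80% to 7.48% of reads before an A-rich stretch. By models in place of reads, the Genomic share averaged 9.00%, last exons 66.8%, introns 25.6% and A-rich stretches 12.9%. In models with 2 or more exons, 41.4% of reads ended past the gene, 40.1% in last exons and 17.4% in introns. With only annotated transcripts that had a read, 9.67% ended past the gene. Without the 10 most read genes, a choice made after seeing the data, introns took 12.7%. Against the odds ratio of all known genes 140 genes were higher and 134 lower, and with single-exon ISM reads added 6 were lower. The median log2 ratio of Genomic CPM per gene, replicate 2 over 1, was 1.17 over genes with 10 or more Genomic reads in both libraries together, a description of genes chosen on the values compared. It was 1.34 with TMM, 1.39 with DESeq2, 1.04 with no minimum and 1.32 at 20 reads. A-rich ends were 10.8% at 10 of 20 bases, 5.18% at 14 and 5.68% for a run of 6 A. Models of replicate 1 and 2 found in the other library were 12.9% and 7.55% at a tolerance of 0 bases, and 22.6% and 13.2% at 100. Genes above 50% in both were 106 at 10 reads and 23 at 50. The cause of these changes was not tested beyond the change each setting makes. Depth limits the shares of genes with few reads.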

Other observations

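The 4 blood markers and the 4 leukocyte markers had 0 Genomic reads in both libraries. The leukocyte markers summed to 39.3 and 55.9 CPM, so few reads stand behind their 0. The blood markers summed to 1048 and 365 CPM. Endothelial markers had 0 and 6 Genomic reads. The 3 nerve and Schwann markers had 30 and 74, shares of 23.6% and 63.2%, at sums of only 119 and 75.1 CPM. Fibroblast and tendon markers had 22 and 252, shares of 0.482% and 5.77%. Adipocyte markers went the other way, with 20 and 3, shares of 4.77% and 2.16%.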
